A study of Mus musculus with 13 samples.

Results

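The genes described here are Hras and Nras, which encode Ras GTPases, and 7 genes that ERK signaling is known to induce, namely the phosphatase genes Dusp4, Dusp5 and Dusp6, the Sprouty genes Spry2 and Spry4, and the Ets factor genes Etv4 and Etv5. They were chosen by name, with earlier results of these data known: the Ras genes because the carcinogen DMBA can mutate them, and the others as output of the pathway. All 9 were found among the 53465 genes of the liver count table, and all 9 passed the filter on low counts that left 13545 genes to test. The question was whether their transcripts differed between genotypes in livers of the cancer model.

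Poly(A) RNA was sequenced from the livers of 6 WT and 7 Nod2-/- mice, all males of the inbred BALB/c strain aged 30 weeks in the labels, with 1 library per mouse. Every mouse of both genotypes had received DMBA and was kept on a high-fat diet for 30 weeks by the labels (the study's text gives a slightly different time), so no group without carcinogen or on chow entered this comparison. Nod2-/- mice lack the innate immune sensor Nod2 in the whole body, and the labels give cancer as the disease state of both genotypes without saying how much tumor each piece of liver held. The study reported liver tumors in a larger share of Nod2-/- than of WT males given the same treatment. Genotype and tumor load therefore cannot be told apart in this comparison. Whole liver was sequenced, so fewer cells of a type and less RNA per cell cannot be told apart.

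Ras proteins are small GTPases of the inner cell membrane that, when bound to GTP, switch on the kinases Raf, Mek and Erk. Active Erk enters the nucleus and induces its own inhibitors: dual-specificity phosphatases remove the phosphates from Erk, and Sprouty proteins restrain the steps between growth factor receptors and Raf. Etv4 and Etv5 are transcription factors that act downstream of the same signal, and transcripts of all these genes are commonly read as a measure of Erk output.

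Depth was 14886273 to 20579984 counts per WT mouse and 13824780 to 19391431 counts per Nod2-/- mouse. Values below are normalized counts, meaning counts scaled by the TMM method to the mean effective library size of the 13 mice, unless another scale is named. Nod2 itself had 0 to 4 counts in WT mice and 1 to 6 counts in Nod2-/- mice, so the genotype labels could not be checked on its transcript at this depth. WT replicate 3 stood apart from the other WT mice in several of the genes below, and values without that mouse are given beside the results that it moved.

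To show what precedes the start sites of genes that were high in the same mice, bases upstream of Dusp5 and Spry2 are printed with those of Dusp6, which was abundant in every mouse. The sequences were taken from RefSeq promoter windows of build GRCm38, run 5′ to 3′ on the strand of the gene and end at the base before the annotated start. Capitals mark matches to the CArG box, the motif of serum response factor. The stretch of Dusp5 is on the plus strand at chr19:53528895-53529108, that of Dusp6 on the plus strand at chr10:99262981-99263230, and that of Spry2 on the minus strand at chr14:105896820-105897069.
Dusp5: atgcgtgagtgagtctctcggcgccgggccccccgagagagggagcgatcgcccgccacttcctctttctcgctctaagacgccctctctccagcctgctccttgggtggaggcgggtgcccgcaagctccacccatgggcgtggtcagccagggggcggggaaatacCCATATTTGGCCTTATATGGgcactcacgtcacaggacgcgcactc
Dusp6: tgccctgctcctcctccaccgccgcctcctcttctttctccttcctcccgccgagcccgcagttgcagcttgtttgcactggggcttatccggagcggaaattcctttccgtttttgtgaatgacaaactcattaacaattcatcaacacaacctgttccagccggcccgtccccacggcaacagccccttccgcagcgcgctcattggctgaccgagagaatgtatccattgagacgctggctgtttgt
Spry2: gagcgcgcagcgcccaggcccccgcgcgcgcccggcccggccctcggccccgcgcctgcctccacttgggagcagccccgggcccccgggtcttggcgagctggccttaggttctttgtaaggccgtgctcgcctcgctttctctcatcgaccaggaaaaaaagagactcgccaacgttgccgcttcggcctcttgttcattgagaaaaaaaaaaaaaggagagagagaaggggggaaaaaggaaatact
Dusp5 held 2 CArG boxes side by side, and none was found in the other 6 windows that the table gave for Hras, Nras, Dusp6, Spry2 and Etv5. Of all 32851 windows, which run from 250 bases before to 50 bases after a start, 1.63% held a CArG box on either strand. The Ets core CCGGAA, searched on both strands, was in the windows of Hras and Spry2 and in 14.9% of all windows. The match of Spry2 was not within the bases printed above, so it included bases from the start site on. Neither the AP-1 motif TGANTCA nor the cAMP response element TGACGTCA occurred in the members' windows, and 7.81% and 1.79% of all windows held them. These are letter matches in short windows, and no binding was measured. Windows for Dusp4, Spry4 and Etv4 were not used here.

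The 9 transcripts covered a wide range of abundance. In FPKM, a measure scaled to gene length and depth that allows different genes to be set side by side, Dusp6 was the most abundant with 17.6 ± 5.28 (SD, n = 13 mice), followed by Hras with 10.1 ± 1.25. Spry4 (5.21 ± 2.04) and Nras (5.19 ± 0.621) came next on this scale and did not differ beyond their spread, with Spry4 above Nras in 7 of 13 mice. Dusp5 (1.62 ± 1.6) and Etv5 (1.24 ± 0.28) were not separated either, since Dusp5 exceeded Etv5 in 5 of 13 mice. Spry2 followed with 0.804 ± 0.465, Dusp4 with 0.384 ± 0.226 and Etv4 with 0.243 ± 0.104. Dusp6 was above Hras in 12 of 13 mice, Hras was above Spry4 in all 13, and Nras was above Dusp5 in all 13.

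None of the 9 genes passed a false discovery rate of 5% in edgeR's quasi-likelihood test of Nod2-/- against WT, where 1.16% of all tested genes did. The count was also 0 with DESeq2 and with limma's voom. By sign, 7 were higher and 2 lower in Nod2-/- mice. At an unadjusted p under 0.05, Nras and Dusp6 were higher, among 12.9% of all tested genes, and Spry4 was lower, among 10.2%. The median log2 fold change of the 9 genes was 0.19, and that of all tested genes was 0.02. No member had genotypes that did not overlap, a pattern seen in 1.44% of tested genes.

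**Figure D1:**
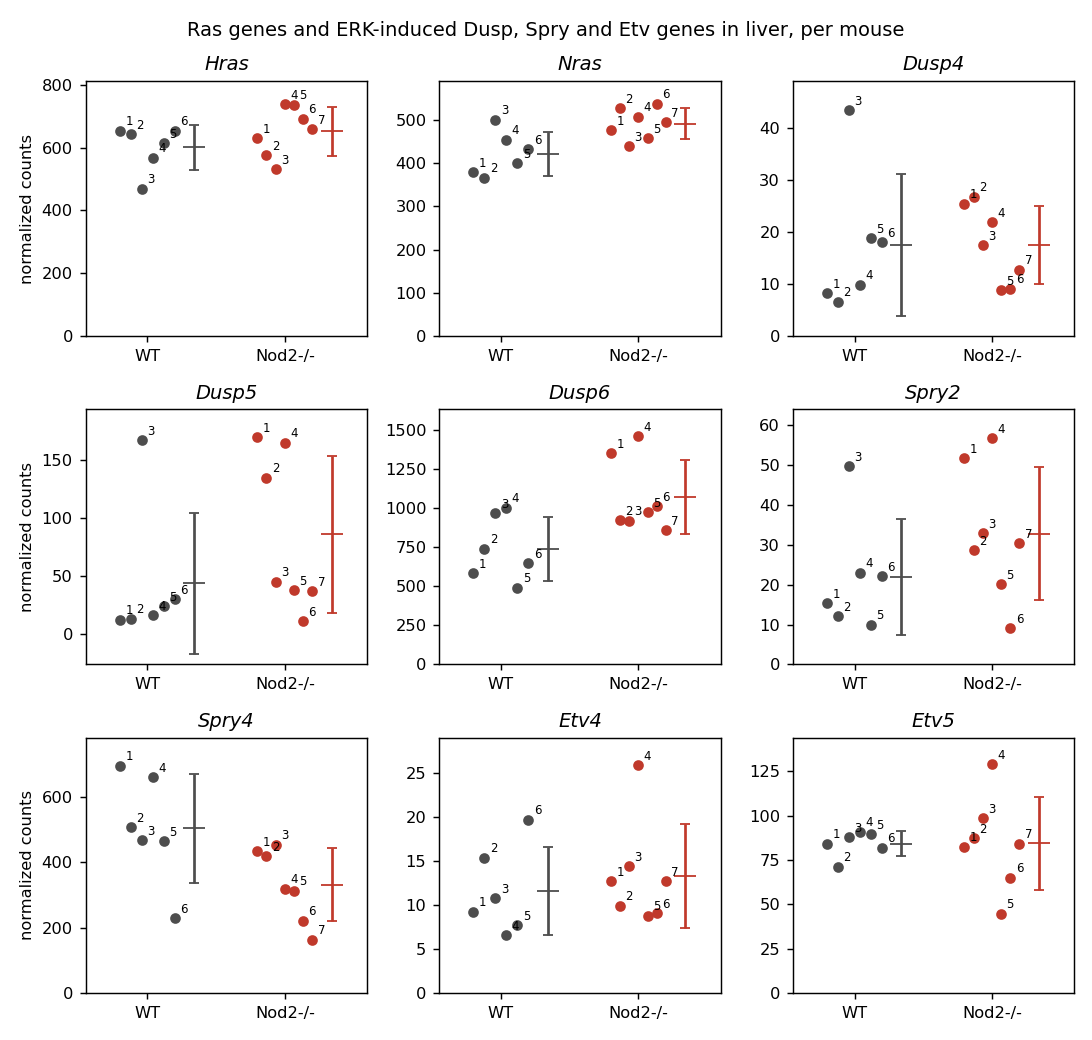
Normalized counts (y axis, linear from 0 or below) of the 9 genes in 6 WT (grey) and 7 Nod2-/- (red) mice, each point 1 mouse with its replicate number, and a bar for mean ± SD beside each group. The genotypes overlap in every panel, and WT replicate 3 lies far above the other WT mice for Dusp4, Dusp5 and Spry2.

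Hras and Nras encode GTPases that are nearly alike in their catalytic part and differ in their tails. Hras lies on chromosome 7 (141189105 to 141194005 of GRCm38, minus strand) and Nras on chromosome 3 (103058285 to 103067914, plus strand). Of all 43-base words in the transcripts, 43 being the read length, 0% of those of Hras and 1.44% of those of Nras also occurred in transcripts of another gene. Hras had a lowest, median and highest value of 469, 629 and 655 normalized counts in WT mice. The Nod2-/- mice had 532, 659 and 739. WT replicate 3 was the lowest of all mice, 4 of 7 Nod2-/- mice were above every WT mouse, and the remaining mice overlapped. The means were 601 ± 72.6 (SD, n = 6) and 652 ± 78.4 (SD, n = 7) normalized counts, and the log2 fold change of 0.12 (SE 0.10) did not pass edgeR's test (adjusted p = 0.495). Its 95% interval ran from 0.935-fold to 1.26-fold, and without WT replicate 3 the log2 fold change of Hras was 0.04 (edgeR adjusted p = 0.798).

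Nras ranged from 366 through a median of 416 to 501 normalized counts in WT mice. It ranged from 440 through 495 to 538 in Nod2-/- mice. WT replicate 3 had the highest WT value and lay within the range of the Nod2-/- mice, whereas 4 of 6 WT mice were below every Nod2-/- mouse. The group means were 422 ± 50.5 (SD, n = 6) and 492 ± 36 (SD, n = 7) normalized counts. The log2 fold change was 0.22 (SE 0.09), with an adjusted p of 0.15 in edgeR and an unadjusted p of 0.0157 in a two-sided exact permutation test over the 1716 splits of the mice. Without WT replicate 3 the log2 fold change of Nras was 0.26, with an adjusted p of 0.0581 in edgeR. The coefficient of variation in WT mice was 12.1% for Hras and 12% for Nras, lower than that of every induced gene except Etv5 (8.54%).

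Of the phosphatases, Dusp6 acts on Erk in the cytoplasm, and Dusp4 and Dusp5 act in the nucleus. Dusp6 (chromosome 10, 99263231 to 99267489, plus strand) had a lowest, median and highest value of 491, 695 and 1002 normalized counts in WT mice. The corresponding values of Nod2-/- mice were 858, 972 and 1461. Nod2-/- replicates 4 and 1 were the highest of all mice, with 1461 and 1350, and 4 of 6 WT mice were below every Nod2-/- mouse, but WT replicates 3 (966) and 4 (1002) lay inside the Nod2-/- range. Mean Dusp6 was 739 ± 207 (SD, n = 6) in WT and 1071 ± 236 (SD, n = 7) normalized counts in Nod2-/- mice. The log2 fold change of 0.54 (SE 0.18) had the smallest p of the 9 genes, and it did not pass after adjustment in edgeR (adjusted p = 0.107). The unadjusted 95% interval was 1.11-fold to 1.89-fold, and the two-sided exact permutation test gave p = 0.0192. With each mouse left out in turn the log2 fold change of Dusp6 stayed between 0.44 and 0.64, with edgeR's adjusted p from 0.053 to 0.209.

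Dusp5 lies on chromosome 19 (53529109 to 53542431, plus strand). Its exons share 547 bases with the antisense gene AC137853.2 on the other strand, and 20.8% of its 43-base words occur in that gene. The library kit keeps strand, but how the counting used it is not given in the sources used here, and without strand the reads of both genes cannot be told apart. Dusp5 had the widest spread of the members, from 12.3 through a median of 20.4 to 167 normalized counts in WT mice. In Nod2-/- mice it ran from 11.4 through 45.2 to 170. The 13 mice fell into separate ranges: 4 mice had 135 to 170 normalized counts (WT replicate 3 and Nod2-/- replicates 1, 2 and 4), and the other 9 mice had 11.4 to 45.2. Mean Dusp5 was 43.9 ± 60.8 in WT (SD, n = 6) and 85.9 ± 67.8 in Nod2-/- mice (SD, n = 7), its log2 fold change was 0.95 (SE 0.70), and edgeR's adjusted p was 0.429. WT replicate 3 alone held 63.4% of the summed WT value.

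Without WT replicate 3 the Dusp5 log2 fold change was 2.12, with an adjusted p of 0.0455 in edgeR. That was the only member past 5% in that fit, in which 8.49% of all tested genes passed. No other of the 20 alternatives called Dusp5, and without both WT replicate 3 and Nod2-/- replicate 7 its log2 fold change was 2.26 (edgeR adjusted p = 0.0512).

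Dusp4 (chromosome 8, 34807297 to 34819894, plus strand) was scarce, with 6 to 48 raw counts per mouse. It had a lowest, median and highest value of 6.58, 13.9 and 43.4 normalized counts in WT mice. Those of the Nod2-/- mice were 8.79, 17.5 and 26.8. WT replicate 3 held the highest value of all mice, and the genotypes otherwise overlapped through most of their range. The means, 17.5 ± 13.7 (SD, n = 6) and 17.5 ± 7.49 (SD, n = 7), were equal to the digits given, and the log2 fold change was -0.02 (SE 0.42; edgeR adjusted p = 0.983). The interval, 0.527-fold to 1.85-fold, holds folds above and below 1, and without WT replicate 3 the log2 fold change was 0.48 (adjusted p = 0.421).

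The Sprouty genes had opposite signs. Spry4 (chromosome 18, 38586247 to 38601415, minus strand) ranged from 229 through a median of 487 to 696 normalized counts in WT mice. In Nod2-/- mice it ranged from 163 through 319 to 454. The upper part of the WT group was clear of the other genotype, with 5 of 6 WT mice above every Nod2-/- mouse, but WT replicate 6 (229) was near the bottom of the Nod2-/- range. The means were 504 ± 167 (SD, n = 6) and 332 ± 111 (SD, n = 7) normalized counts. The log2 fold change was -0.60 (SE 0.26), edgeR's adjusted p was 0.188, and the two-sided exact permutation test gave p = 0.0828. With each mouse left out in turn it ran from -0.75 to -0.48, and it was negative in every one of these fits.

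Spry2 (chromosome 14, 105891947 to 105896819, minus strand) had 8 to 57 raw counts per mouse. It had 9.94, 18.7 and 49.7 normalized counts as lowest, median and highest WT value. In Nod2-/- mice these were 9.1, 30.4 and 56.8. The highest WT value was that of WT replicate 3, the Nod2-/- replicates 1 and 4 were above all WT mice, and Nod2-/- replicate 6 was below all of them. Mean Spry2 was 22 ± 14.5 in WT (SD, n = 6) and 32.9 ± 16.7 in Nod2-/- mice (SD, n = 7), and the log2 fold change of 0.56 (SE 0.42) had an adjusted p of 0.431 in edgeR. Without WT replicate 3 it was 0.97 (adjusted p = 0.125).

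Dusp6 and Spry4, the most abundant phosphatase and Sprouty transcripts, were compared within each mouse after their values had been seen, so the comparison is given without a test. The log2 ratio of Dusp6 to Spry4 normalized counts averaged 0.59 ± 0.63 (SD, n = 6) in WT mice and 1.75 ± 0.54 (SD, n = 7) in Nod2-/- mice. It was lowest at -0.25 (WT replicate 1) and highest in WT replicate 6 among WT mice, and it ran from 1.02 (Nod2-/- replicate 3) to 2.40 (Nod2-/- replicate 7) in Nod2-/- mice. In 5 of 7 Nod2-/- mice it was above every WT mouse.

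The genotype means of Etv4 and Etv5 did not differ beyond the spread between mice. Etv4 (chromosome 11, 101769742 to 101785371, minus strand) had 6.58, 10 and 19.7 normalized counts as lowest, median and highest WT value, and 8.79, 12.7 and 25.9 in Nod2-/- mice. The highest value, in Nod2-/- replicate 4, was apart from the other 6 Nod2-/- mice, which had 8.79 to 14.4. The means were 11.6 ± 5 (SD, n = 6) and 13.4 ± 5.93 (SD, n = 7) normalized counts, and the log2 fold change was 0.19 (SE 0.32; edgeR adjusted p = 0.751), with an interval of 0.71-fold to 1.84-fold. It had 6 to 26 raw counts per mouse.

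Etv5 (chromosome 16, 22381309 to 22439719, minus strand) had 71.3, 85.9 and 91 normalized counts as lowest, median and highest WT value. In Nod2-/- mice these were 44.8, 84.3 and 129. Mean Etv5 was 84.2 ± 7.19 in WT (SD, n = 6) and 84.4 ± 26.2 in Nod2-/- mice (SD, n = 7), with a log2 fold change of 0.00 (SE 0.19; edgeR adjusted p = 0.995). The WT mice lay inside the range of the Nod2-/- mice, 2 of which were above and 2 below all WT mice, and the coefficient of variation was 8.54% in WT and 31% in Nod2-/- mice. Of its 43-base words, 26.6% also occur in Gm4798, a gene with 2 to 4 counts in WT and 1 to 4 counts in Nod2-/- mice, so how reads were divided between the loci is uncertain.

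**Figure D2:**
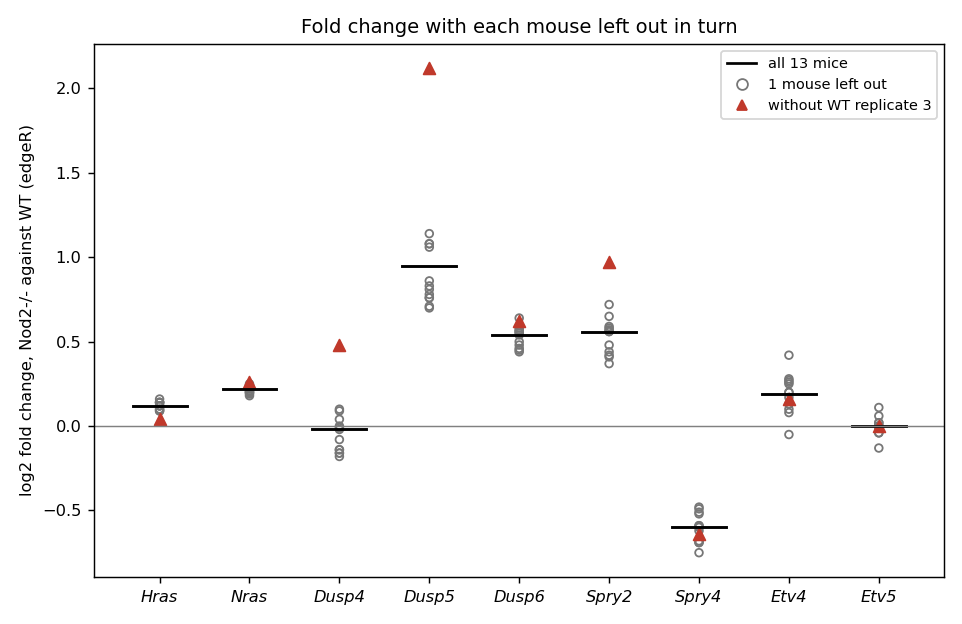
Log2 fold change of Nod2-/- against WT (y axis, edgeR) for the 9 genes with all 13 mice (black line), with 1 mouse left out (grey circles) and without WT replicate 3 (red triangles). Leaving out WT replicate 3 moves Dusp5 from 0.95 to 2.12, Spry2 from 0.56 to 0.97 and Dusp4 from -0.02 to 0.48. Dusp4, Etv4 and Etv5 change sign in some fits, and the other genes keep theirs in every fit.

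Dusp5, Dusp4 and Spry2 were high in the same mice. Over the 36 pairs of members, 26 correlations of log2 CPM (depth-scaled counts) were positive and 10 negative. Only the pairs of Dusp5 with Dusp4 and with Spry2 passed 5% by Pearson's r in permutations within genotype, with adjusted p = 0.00216 and adjusted p = 0.0243. By Spearman's rho the adjusted p was 0.00792 for Dusp4 and 0.118 for Spry2 in the same permutation test. Since Dusp5 lay in separate ranges, no pooled r is given for these pairs. In the 4 mice of the higher Dusp5 range, Dusp4 had 21.9 to 43.4 normalized counts, and in the other 9 mice it had 6.58 to 18.8, with no overlap. Spry2 had 28.7 to 56.8 and 9.1 to 32.9 normalized counts in the same mice, which overlap.

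Within the 9 mice of the lower range, r of Dusp5 and Dusp4 was 0.64 (rho 0.47). It was 0.55 without WT replicate 1 and Nod2-/- replicate 6, the mice farthest from the median of Dusp5. For Dusp5 and Spry2 in these 9 mice r was 0.73 (rho 0.73), and r was 0.64 without the same mice. Both the pairs and the ranges were chosen after the values were seen in these mice, so the values are given as a description, without a test.

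**Figure D3:**
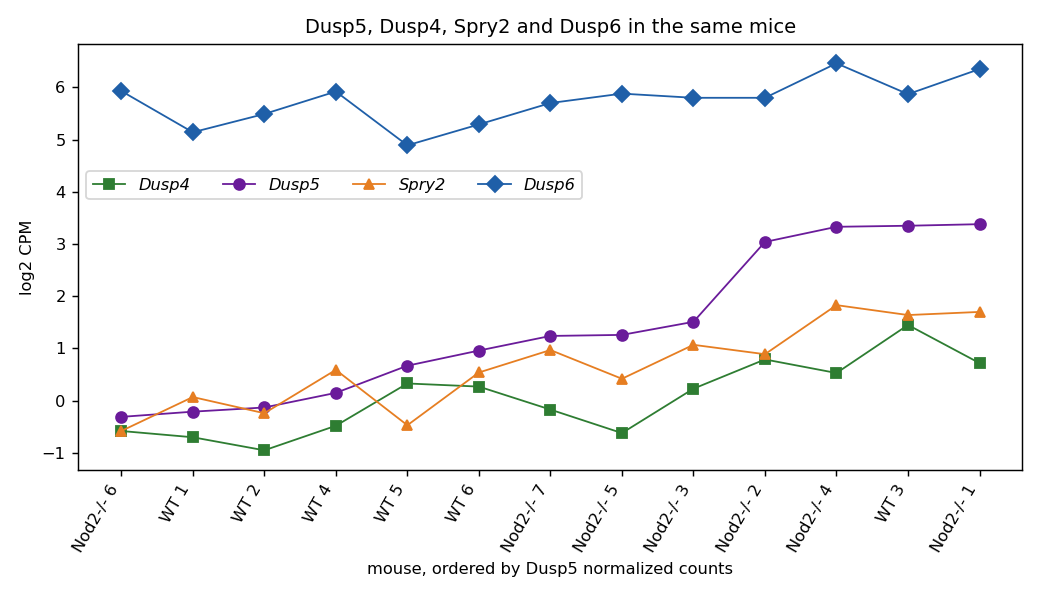
Log2 CPM (y axis) of Dusp5, Dusp4, Spry2 and Dusp6 in the 13 mice, ordered along the x axis by Dusp5 normalized counts, with lines joining the values of a gene. The 4 mice at the right, Nod2-/- replicates 1, 2 and 4 and WT replicate 3, are high in Dusp5, and Dusp4 is at its highest in the same 4 mice.

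Markers of several cell types also differed among these mice. The 6 biliary epithelium markers summed to 593 to 3578 normalized counts in WT mice, WT replicate 3 being the highest, and to 1781 to 6662 in Nod2-/- mice. Of these markers 5 were tested, 3 with higher and 2 with lower values, and 1 passed 5% in edgeR. In the 4 mice of the higher Dusp5 range the biliary sum was 3578 to 6662, and in the other 9 mice 593 to 3740. The 6 stellate cell markers summed to 3182 to 6048 in WT mice and to 3394 to 4535 in Nod2-/- mice. WT replicate 3 was again the highest. All 6 were tested, 2 with higher and 4 with lower values in Nod2-/- mice. The 10 dividing cell markers summed to 54.8 to 280 in WT and 160 to 624 in Nod2-/- mice, and all 7 tested were higher. By Dusp5 range, the stellate sum was 3394 to 6048 in the 4 higher mice and 3182 to 4535 in the other 9. The dividing cell sum was 217 to 541 and 54.8 to 624. Each of these sums overlapped between the ranges. The part of these cells in the values of Dusp5, Dusp4 and Spry2 was not tested.

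The remaining marker lists are given for all members. Neutrophil markers summed to 71.3 to 190 normalized counts in WT and 117 to 17441 in Nod2-/- mice, with the highest value in Nod2-/- replicate 7, the mouse with the lowest Spry4. Kupffer cell markers summed to 1618 to 2743 and 1970 to 5957, T and NK cell markers to 48.2 to 89.5 and 34.1 to 161, and B cell markers to 11.7 to 36.2 and 13.7 to 61.7. Sinusoidal endothelium markers summed to 2446 to 3454 and 2708 to 3587, and hepatocyte markers, which check the labelled tissue, to 1402986 to 1968660 and 1433097 to 2790806. Lung epithelium markers, which are not markers of liver cells, summed to 231 to 3288 in WT and 49.7 to 545 in Nod2-/- mice. The highest sums were those of WT replicates 4 (3288), 2 (1853) and 3 (934). Of 6 tested, 1 was higher and 5 were lower in Nod2-/- mice, and 0 passed 5% in edgeR. Where these reads came from was not tested. No marker of any list was at 0 in every mouse, and the part of these cells in the members' values was not tested.

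Other genes of the pathway were read from a list of 93 genes in 8 groups, of which 92 were in the table and 77 were tested. Only Rras, a Ras relative known for its role in integrin signaling, passed 5%, against 1.16% of all genes, and 48 genes were higher and 29 lower by sign. At an unadjusted p under 0.05, 16 of the 77 were higher and 6 lower, where 12.9% and 10.2% of all tested genes were. The median log2 fold change was 0.15, beside 0.02 for all tested genes. Rras rose from 257 ± 34.9 (SD, n = 6) to 459 ± 144 (SD, n = 7) normalized counts, a log2 fold change of 0.84 (SE 0.18; edgeR adjusted p = 0.0422), and 6 of 7 Nod2-/- mice were above every WT mouse. The call on Rras was lost in 7 of 13 fits that left out 1 mouse, with an adjusted p of up to 0.111 in edgeR. The other Ras relatives included Ralb, at 0.50 on the log2 scale (edgeR adjusted p = 0.0783), which passed with DESeq2 (adjusted p = 0.0328).

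The following partners and relatives of the members did not pass 5% in edgeR with all 13 mice. With DESeq2, Mapk3 (adjusted p = 0.00714), Dusp10 (adjusted p = 0.00569) and Spry1 (adjusted p = 0.016) passed. With voomWithQualityWeights the same genes and Elf1 (adjusted p = 0.0435) passed. DESeq2 called 605 genes higher and 549 lower over all genes, where edgeR called 88 and 69. Mapk3, which encodes the kinase Erk1 that Dusp6 inactivates, had a log2 fold change of 0.36 (SE 0.08; adjusted p = 0.0512), and Mapk7 one of 0.61 (adjusted p = 0.105). All 7 Nod2-/- mice were above all WT mice for Mapk3 and for Dusp10, a phosphatase that prefers the stress kinases p38 and Jnk, whose log2 fold change was 0.76 (adjusted p = 0.0576). These were the only 2 of the 77 whose genotypes did not overlap, a pattern seen in 1.44% of all tested genes. Dusp1, an immediate early phosphatase, had -0.55 (adjusted p = 0.191). Spry1, another Sprouty gene, had 0.62 (adjusted p = 0.0673), and the adaptor Rasip1 of endothelium had 0.47 (adjusted p = 0.166). The Ets factors Ets1 and Elf1 had log2 fold changes of 0.24 (adjusted p = 0.154) and 0.28 (adjusted p = 0.16).

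Of the listed exchange factors for Ras-family GTPases, Rasgrp2 and Rasgrp1 had log2 fold changes of 1.25 (edgeR adjusted p = 0.0601) and 0.93 (adjusted p = 0.145). The GTPase-activating proteins Rasa4 and Rasal1 had 0.73 (adjusted p = 0.193) and 1.21 (adjusted p = 0.375). Rasal1 passed without WT replicate 3, with 2.64 (edgeR adjusted p = 0.039), and with voomWithQualityWeights, with 2.95 (adjusted p = 0.0308). Among other transcripts that Erk induces, Ier3 had 1.52 (adjusted p = 0.0579) and Phlda1 had -0.90 (adjusted p = 0.131). Rasgrp2 and Ier3 passed with DESeq2 (adjusted p = 0.00345 and 0.00483) and with voomWithQualityWeights (adjusted p = 0.0185 and 0.0385). Rasgrp2, Ier3 and Phlda1 are in gene lists that the study drew up on these same samples, so they are not independent evidence of a direction. Without WT replicate 3, 12 of these pathway genes passed 5%, where 8.49% of all tested genes did.

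**Figure D4:**
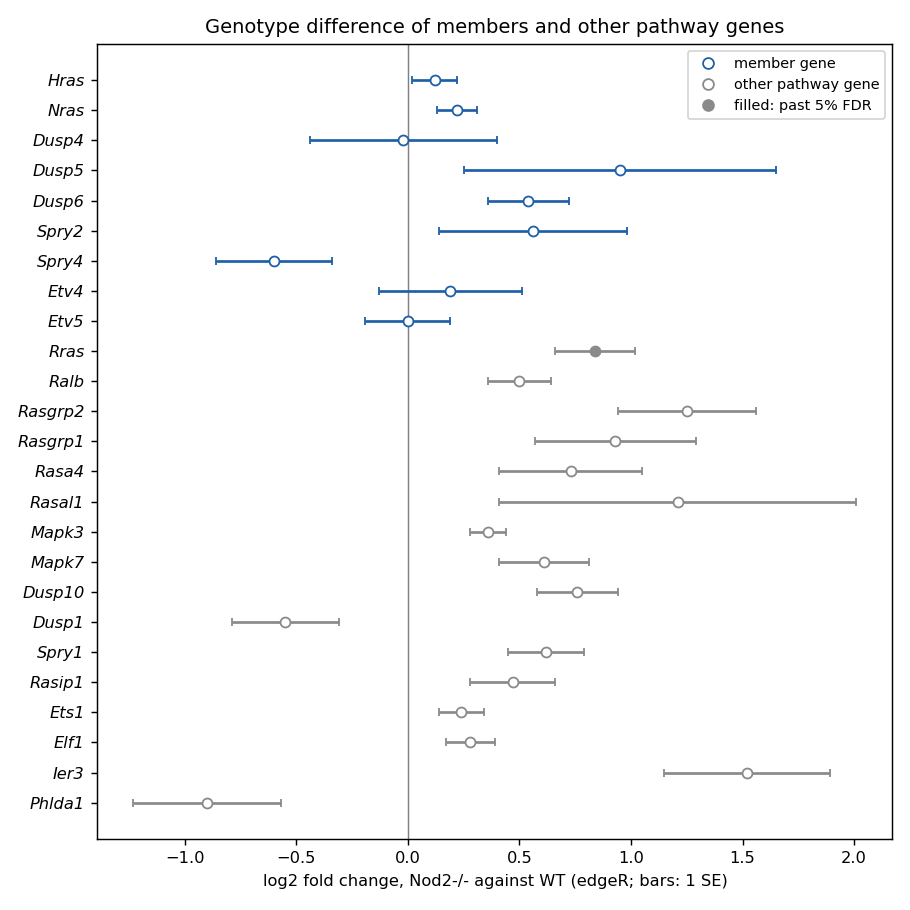
Log2 fold change of Nod2-/- against WT (x axis, edgeR) for the 9 genes (blue) and the named pathway genes (grey), with bars of 1 SE. Filled points passed 5%, which only Rras did with a value of 0.84, and Spry4 at -0.60 has the lowest value among the 9 genes.

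Across the 13 mice, the genes outside these lists whose log2 CPM ranked most like each member's were noted as a description, each being the highest Spearman rho among all tested genes. For Hras they were Ppie, a cyclophilin of the spliceosome, with rho 0.98 and the ribosomal protein gene Rps18 with 0.97, and for Nras Anxa5 with 0.98 and Cnksr3 with 0.97. Dusp5 was matched by Cd276, an immune checkpoint ligand, and by Arhgap22, both with rho 0.96, and Arhgap22 was also the gene most like Spry2, with 0.91, followed by Fgd1 with 0.90. Dusp4 was matched by Rpgrip1l, a gene of the ciliary base, with 0.96 and by Cdkn2b, a cell cycle inhibitor, with 0.93. Dusp6 ranked most like Cstf3 (0.91) and Siah2 (0.88), and Spry4 most like Gpd2, the mitochondrial glycerol phosphate dehydrogenase, and Txndc5, both at 0.93. For Etv4 rho was 0.80 with 3110009E18Rik and with Pla2g16, and for Etv5 it was 0.90 with Arfgap1 and 0.89 with Sgsh. All of these share the libraries and their depth with the members. The genotype difference was left in these values. How high a rho arises by chance when the best of 13545 genes is picked was not tested.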

How the data were processed

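Per the submitters' processing notes, Trimmomatic 0.33 and TopHat2 2.1.1 were used with build GRCm38, and the authors deposited raw counts per gene for each mouse as whole numbers. The counting program, its use of strand and its handling of reads that map to several places are not given in the sources used here. Genotypes came from the labels. Symbols, positions and exon lengths came from GENCODE release 21 of the same build (the authors used release 16), in which 53274 of 53465 genes were found, and 1 row without a gene ID was left out.

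The filterByExpr function left 13545 genes holding 99.9% of counts. The quasi-likelihood test of edgeR 4.0.16 (R 4.3.3, TMM factors 0.904 to 1.08, glmQLFTest, two-sided) compared the genotypes without covariates, and p-values were adjusted over all tested genes by the Benjamini-Hochberg method at 5%. Log2 CPM used a prior count of 2, and FPKM the summed exon length. Exact permutation tests covered all 1716 splits, with a smallest p of 0.000583. Pairs of members were tested with 100000 permutations within genotype, and p-values were adjusted over 36 pairs. Named pathway genes are, per group, up to 3 past 5% and otherwise the 2 with the lowest p, and for each member the 2 genes outside the lists with the highest rho. Alternatives were DESeq2 1.42.0, RLE normalization, voomWithQualityWeights of limma 3.58.1, no filter, at least 10 counts in every mouse, a replicate block and leaving out mice. Libraries of a genotype were compared for duplicates, and all 36 pairs differed beyond sampling noise (chi-square over its degrees of freedom 11.6 to 177). The scripts were tested on simulated data. The members and lists, 10 of them of cell type markers, were chosen with earlier results of these data known. The labels do not say whether mice shared litters or cages, so p-values measure the spread between these mice.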

Additional observations from a re-analysis of the deposited data

Results flagged for a closer look

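WT replicate 3 was set apart from the other 5 WT mice in 3 of the 9 genes. It had 43.4 normalized counts of Dusp4, where the other WT mice had 6.58 to 18.8, 167 of Dusp5, where they had 12.3 to 30.3, and 49.7 of Spry2, where they had 9.94 to 23. Nod2-/- replicate 4 had 25.9 normalized counts of Etv4, where the other 6 Nod2-/- mice had 8.79 to 14.4. Each was picked because the gap to the nearest mouse of its genotype was a large part of the whole range by Dixon's 95% criterion. The criterion was applied to 18 groups, and chance alone picks about 1 in 20 where values are normally distributed. Its rate for low counts such as those of Dusp4, Spry2 and Etv4 was not tested. The values of WT replicate 3 come from 1 library, so they are not separate observations.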

How the results depend on the processing

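No member passed 5% in 19 of 20 alternatives, and the count was 0 to 1 when each mouse was left out in turn, the 1 being Dusp5 without WT replicate 3 (log2 fold change 2.12; range 0.70 to 2.12). At least 10 counts in every mouse left out Dusp4, Spry2 and Etv4. Without WT replicate 3 and Nod2-/- replicate 7 Dusp5 had 2.26 (edgeR adjusted p = 0.0512). Signs turned for Dusp4, Etv4 and Etv5. Dusp4 went from -0.02 to 0.16 with the replicate block, 0.42 with voomWithQualityWeights, 0.55 without WT replicate 3 and Nod2-/- replicate 7, and -0.18 to 0.48 with 1 mouse left out. Etv5 went from 0.00 to -0.01 with DESeq2 and with RLE normalization, -0.02 without a filter, -0.05 with the block, -0.06 with voomWithQualityWeights, and -0.13 to 0.11 with 1 mouse left out, and Etv4 from -0.05 to 0.42. The cause was not tested.

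Pathway genes past 5% numbered 7 with DESeq2, 8 with voomWithQualityWeights, 0 with the replicate block, 6 without WT replicate 3 and Nod2-/- replicate 7, and 0 to 12 with 1 mouse left out, against 1. Over all genes, 88 were higher and 69 lower, against 605 and 549 with DESeq2, 519 and 324 with voomWithQualityWeights, 15 and 17 with the block, 408 and 159 without that pair of mice, and 20 to 697 and 20 to 459 with 1 mouse left out, the highest counts being those without WT replicate 3. In the lower range of Dusp5, an alternative chosen after seeing the data, r of Dusp5 and Spry2 was 0.73, given without a test. Mice with the same replicate number did not deviate together (r from -0.302 to 0.304 over 6 numbers). Of the 6, 0 correlated best with their own number. Whether same-numbered mice shared a litter or cage is not in the labels, so this check cannot exclude a pairing. The replicate block gave Dusp6 a log2 fold change of 0.60 (adjusted p = 0.143 in edgeR). No alternative moved the median log2 fold change of all genes by more than 0.05. The standard errors were widest for Dusp5 (0.70), Dusp4 (0.42) and Spry2 (0.42).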
